A study of Homo sapiens with 8 samples.

Results

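The genes described are 7 chemokine receptors known from B cells: CCR7, CCR6, ACKR3, CXCR4, CXCR5, CXCR3 and CCR10. They were taken as every probe set annotated to exactly 1 of these symbols, which gave 13 probe sets of the 41091 with a single symbol, and 7 of 19775 genes. All 7 genes were measured, and no filter on level was applied. Expression was measured on Affymetrix U133 Plus 2.0 arrays in Reh cells, an established cell line of precursor B-cell origin from an acute lymphoblastic leukaemia. The cells carried IRF5-4D together with IKKβ(EE) (the combination), IRF5-4D alone, IKKβ(EE) alone, or control constructs (mock), with 2 arrays in each of the 4 groups. IRF5-4D is a constitutively active form of the transcription factor IRF5, and IKKβ(EE) is a constitutively active form of the kinase that switches on NF-κB. The 2 arrays of each group, numbered 1 and 3, are called biological duplicates. The sources used here do not give the meaning of these numbers, the promoter of the constructs, the share of transfected cells or the time to harvest. The p values therefore measure only the spread between these arrays, which may be technical.

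Chemokine receptors are G protein-coupled receptors that steer cells along gradients of small secreted proteins, the chemokines, through Gi proteins. On B cells they set position: CXCR4 retains precursors in the bone marrow, CXCR5 leads to follicles, CCR7 to T cell zones, CCR6 to epithelial and mucosal sites, CXCR3 to inflamed tissue, and CCR10 guides antibody-secreting cells to mucosa and skin. ACKR3 is an atypical receptor that binds CXCL12 and CXCL11, recruits arrestin and removes chemokine without signalling through G proteins in the usual way. Some of these genes are known targets of NF-κB or of interferon regulatory factors in other cells, which is why both kinds of motif were looked up in their promoters.

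Of the 7 receptors, 4 have promoter entries in the RefSeq table for GRCh38.p14 (CCR6, CXCR4, CXCR5 and CXCR3), with 8 start sites among them. The 250 bases before each start were searched on both strands for GAAANNGAAA, a core of sites for interferon regulatory factors, and for GGGNNNNNCC, a loose form of NF-κB sites. Matches on opposite strands can overlap. Among the promoters of all genes in the table, 3.02% of 35116 windows held GAAANNGAAA and 54.4% held GGGNNNNNCC. Shown are the CCR6 window with the GAAANNGAAA match, the windows of the first CXCR4 start and of CXCR3, whose levels did not pass a test anywhere below, and CXCL10, a ligand of CXCR3 with both motifs. Sequences run 5′ to 3′ on the strand of the gene and capitals mark every match.
CCR6, chr6:167111545-167111794, plus strand: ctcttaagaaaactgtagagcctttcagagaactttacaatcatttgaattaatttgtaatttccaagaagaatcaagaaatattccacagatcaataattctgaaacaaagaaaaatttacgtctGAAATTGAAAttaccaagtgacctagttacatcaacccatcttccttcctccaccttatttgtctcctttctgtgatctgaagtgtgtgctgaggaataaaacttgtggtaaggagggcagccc
CXCR4, chr2:136118150-136118399, minus strand: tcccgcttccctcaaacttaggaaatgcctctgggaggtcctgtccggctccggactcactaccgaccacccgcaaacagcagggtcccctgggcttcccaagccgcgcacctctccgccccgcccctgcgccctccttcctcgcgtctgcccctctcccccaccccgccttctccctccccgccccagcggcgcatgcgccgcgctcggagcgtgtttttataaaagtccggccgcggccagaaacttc
CXCR3, chrX:71618512-71618761, minus strand: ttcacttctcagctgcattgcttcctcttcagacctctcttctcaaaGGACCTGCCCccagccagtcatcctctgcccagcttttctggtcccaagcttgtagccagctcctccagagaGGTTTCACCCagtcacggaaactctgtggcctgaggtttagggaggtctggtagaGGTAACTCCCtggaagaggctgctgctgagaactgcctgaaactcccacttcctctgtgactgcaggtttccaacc
CXCL10, chr4:76023498-76023747, minus strand: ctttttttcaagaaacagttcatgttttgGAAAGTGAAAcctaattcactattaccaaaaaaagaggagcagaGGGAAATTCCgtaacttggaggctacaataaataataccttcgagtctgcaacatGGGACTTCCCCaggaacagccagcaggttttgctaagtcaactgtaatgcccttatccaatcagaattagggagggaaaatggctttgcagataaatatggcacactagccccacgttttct
In the CCR6 window the match was GAAATTGAAA, from base -124 to base -115 relative to the start site. It was the only GAAANNGAAA match among the 8 receptor windows. The window of the second CCR6 start held GGGNNNNNCC, from base -55 to base -46, and the window of the third CCR6 start held neither motif. The first CXCR4 window held neither motif, the windows of the other CXCR4 starts held GGGNNNNNCC 1 time each, the CXCR5 window held 2 overlapping matches of it and the CXCR3 window 3. These matches are letters in a window and were not tested for binding.

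The 8 arrays were alike in their overall distribution: lower quartiles lay between 3.67 and 3.73, the median between 5.09 and 5.13 and the upper quartile between 7.47 and 7.53 on the log2 scale. The 2 arrays within a group correlated at 0.994 to 0.997, taken across genes, and genes are not independent of each other. B cell markers were high in every group: the mean of 9 measured markers lay between 11.6 and 11.9 in the combination arrays, 11.6 and 11.7 with IRF5-4D, 11.5 and 11.6 with IKKβ(EE), and 11.4 and 11.5 in mock. The means of 12 T and NK cell markers lay between 4.66 and 4.82 and those of 9 measured myeloid markers between 4.37 and 4.62 over all 8 arrays, and none of these genes was above the upper quartile of all genes in any group. A probe set of IKBKB, the gene of IKKβ, read 11.11 and 9.33 on combination arrays 1 and 3, 4.68 and 4.60 with IRF5-4D, 12.57 and 10.98 with IKKβ(EE), and 4.80 and 4.06 in mock. On both pairs of arrays that carry IKKβ(EE) it was higher on array 1. The difference of the combination from IKKβ(EE) alone on this probe set was -1.56 (95% interval -2.89 to -0.23), which did not pass limma's test over all probe sets (adjusted p = 0.375). IRF5 has 3 probe sets, which differed among themselves. The one with the highest level was 0.71 higher in the combination than with IRF5-4D alone (limma adjusted p = 0.0414), while it read 0.20 above mock with IRF5-4D alone (adjusted p = 0.943). Another read -0.074 in the combination against IRF5-4D and 0.57 above mock with IRF5-4D alone (limma adjusted p = 0.688), and the last read 0.23 and 0.051 in these comparisons, with no call. Whether the IRF5 probe sets read the transfected IRF5-4D or the cells' own IRF5 is not known from the sources used here. The part of these IKBKB and IRF5 levels in the results below was not tested. In RNA from whole cultures, a change in fewer cells and a smaller change in every cell cannot be told apart.

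CCR7, the receptor for CCL19 and CCL21 that brings lymphocytes to T cell zones of lymph nodes, was higher with each construct and highest in the combination. Its probe set (206337_at, gene at chr17:40553769-40565472 on GRCh38.p14) read 10.34 and 9.25 on combination arrays 1 and 3, 7.49 and 6.80 with IRF5-4D, 7.35 and 7.84 with IKKβ(EE), and 4.62 and 3.93 in mock. Both combination arrays lay above all others, both mock arrays below all others, and the arrays of the single constructs overlapped each other. Group means were 9.79 ± 0.77 (SD, n = 2) in the combination, 7.14 ± 0.49 with IRF5-4D, 7.59 ± 0.34 with IKKβ(EE) and 4.27 ± 0.49 in mock. Mock array 3 was close to the lower quartile of the arrays, where signal and background are not separated, so the folds against mock are uncertain in size.

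The limma model tested the groups pairwise over all 19775 genes, with a call at a Benjamini-Hochberg adjusted p under 0.05. CCR7 rose by 5.52 (SE 0.38) on the log2 scale in the combination against mock, or 45.9-fold (limma adjusted p = 7.84e-05). It rose by 2.87 with IRF5-4D, or 7.31-fold (limma adjusted p = 0.0150), and by 3.32 with IKKβ(EE), or 9.99-fold (limma adjusted p = 0.00563). The combination was 2.65 above IRF5-4D alone (6.28-fold, limma adjusted p = 0.0117) and 2.20 above IKKβ(EE) alone (4.59-fold, limma adjusted p = 0.0221). The interaction (combination plus mock, minus IRF5-4D and minus IKKβ(EE), in log2 values) asks whether the combination differs from the sum of the single log2 differences. For CCR7 it was -0.67 (SE 0.53) with a 95% interval from -1.87 to 0.53 and did not pass (limma adjusted p = 0.922), so departures from the sum in either direction within that interval are not distinguished. IRF5-4D minus IKKβ(EE) was -0.45 (95% interval -1.30 to 0.40, limma adjusted p = 0.904). The order of the levels was therefore the combination, then both single constructs without a resolved order, then mock. The combination call against mock was kept whichever array was left out (8 fits), with values from 4.98 to 6.06. The IRF5-4D call was lost without IRF5-4D array 1 (2.53, adjusted p = 0.241), without IRF5-4D array 3 (3.21, adjusted p = 0.0663) and without mock array 3 (2.52, adjusted p = 0.120), and the IKKβ(EE) call without IKKβ(EE) array 3 (3.08, adjusted p = 0.0609). Against IRF5-4D the combination call was lost without either IRF5-4D array (2.99 and 2.31), and against IKKβ(EE) without either IKKβ(EE) array (1.96 and 2.44) and without combination array 1 (1.66).

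**Figure D1:**
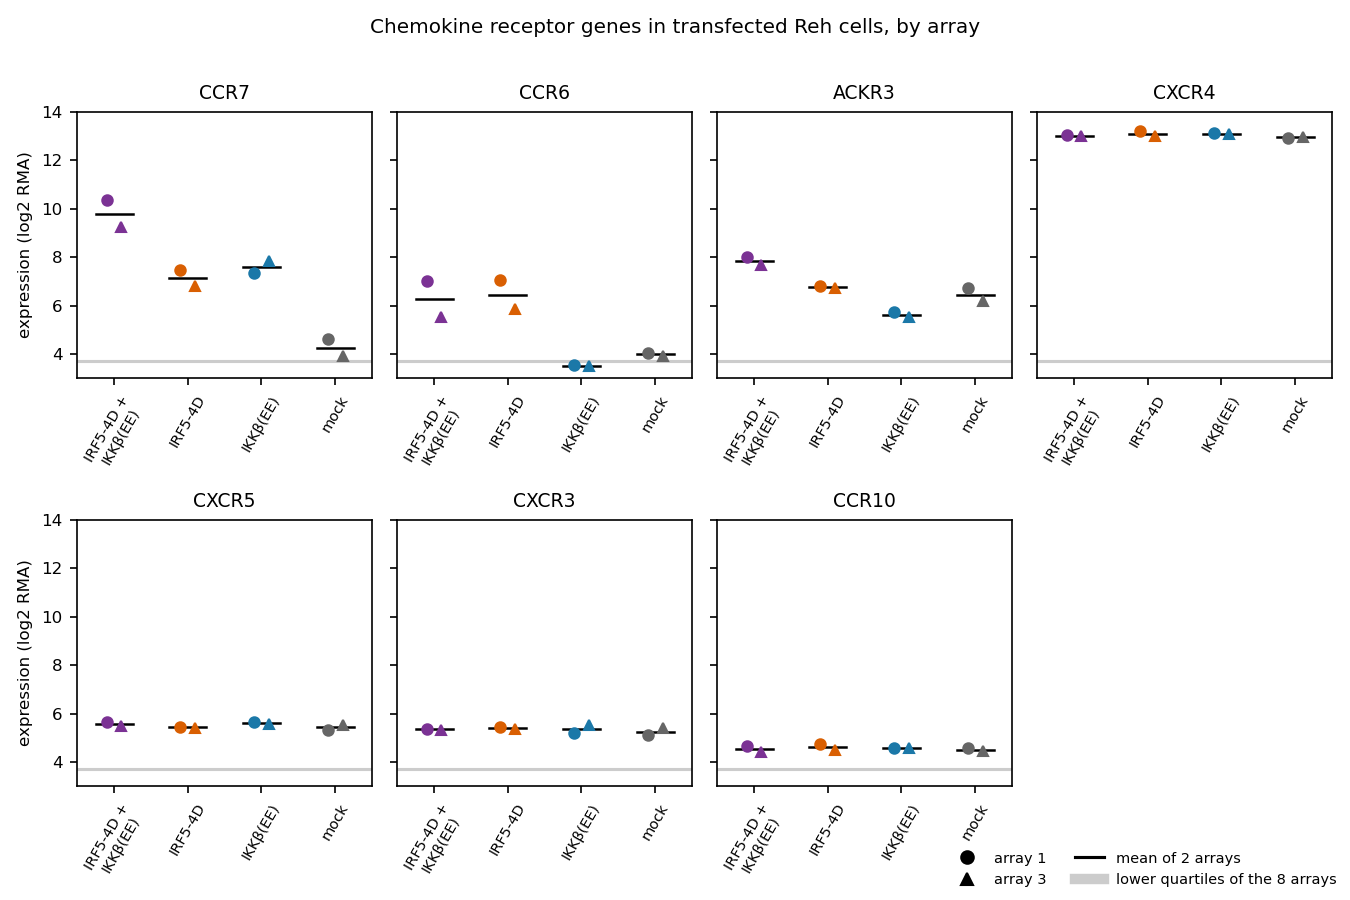
Log2 RMA level of the 7 receptor genes on each array, with the 4 transfection groups along each x axis, a circle for array 1, a triangle for array 3 and a bar for the mean. The grey band marks the lower quartiles of the 8 arrays. CCR7 spans 3.93 to 10.34, CCR6 and ACKR3 vary by group, and CXCR4, CXCR5, CXCR3 and CCR10 show no difference that passed.

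CCR6, the receptor of CCL20 on memory and mucosal B cells, was high in both groups that carry IRF5-4D and low in the others. The probe set 206983_at (gene at chr6:167111795-167139141) read 7.03 and 5.51 on combination arrays 1 and 3. It read 7.05 and 5.87 with IRF5-4D, 3.55 and 3.49 with IKKβ(EE), and 4.03 and 3.94 in mock. The arrays with IRF5-4D all lay above those without it, and array 1 was over 1 log2 unit above array 3 in both groups with IRF5-4D. The levels with IKKβ(EE) were below the lower quartile of the arrays and those in mock near it, so the size of a fold against them is uncertain.

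Group means of CCR6 were 6.27 ± 1.07 (SD, n = 2) in the combination, 6.46 ± 0.83 with IRF5-4D, 3.52 ± 0.043 with IKKβ(EE) and 3.99 ± 0.067 in mock. CCR6 rose by 2.28 (SE 0.46) in the combination against mock, or 4.87-fold (limma adjusted p = 0.0332), and by 2.75 against IKKβ(EE) alone, or 6.72-fold (limma adjusted p = 0.0204). IRF5-4D alone stood 2.47 above mock (95% interval 1.43 to 3.52) and did not pass over all genes (limma adjusted p = 0.107, from 0.0117 to 0.666 over the alternatives), and it passed with a replicate block (adjusted p = 0.0117), with only the groups compared (0.0446) and without either combination array (0.0143). IRF5-4D minus IKKβ(EE), a comparison added after the data were seen, was 2.93, or 7.65-fold (limma adjusted p = 0.0224). The combination did not differ detectably from IRF5-4D alone (-0.19, 95% interval -1.23 to 0.86, limma adjusted p = 0.931), nor IKKβ(EE) from mock (-0.46, 95% interval -1.51 to 0.58, limma adjusted p = 0.904). The interaction was 0.28 (95% interval -1.20 to 1.76, limma adjusted p = 0.983). The call of the combination against mock was lost without combination array 1 (1.53), mock array 1 (2.33), mock array 3 (2.24), IKKβ(EE) array 1 or IKKβ(EE) array 3 (both 2.28), with adjusted p from 0.0655 to 0.122 in these 5 fits, and in 8 of 17 alternatives in all. The call against IKKβ(EE) was lost without either IKKβ(EE) array (2.78 and 2.72) and without combination array 1 (1.99). IRF5-4D minus IKKβ(EE) lost it without either IRF5-4D array (2.35 and 3.52) or either IKKβ(EE) array (2.97 and 2.90).

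ACKR3, the scavenging receptor for CXCL12 and CXCL11, was highest in the combination and lowest with IKKβ(EE) alone. Its brightest probe set (212977_at, gene at chr2:236537122-236582354) read 7.99 and 7.68 on combination arrays 1 and 3, 6.79 and 6.74 with IRF5-4D, 5.72 and 5.52 with IKKβ(EE), and 6.72 and 6.18 in mock. The combination arrays lay above all others, the IKKβ(EE) arrays below all others, and IRF5-4D lay just above both mock arrays. Group means were 7.83 ± 0.22 (SD, n = 2) in the combination, 6.77 ± 0.035 with IRF5-4D, 5.62 ± 0.14 with IKKβ(EE) and 6.45 ± 0.38 in mock.

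ACKR3 rose by 1.38 (SE 0.19) in the combination against mock, or 2.60-fold (limma adjusted p = 0.00472). It was 1.07 above IRF5-4D alone (2.09-fold, limma adjusted p = 0.0301) and 2.21 above IKKβ(EE) alone (4.62-fold, limma adjusted p = 0.000441). IRF5-4D alone read 0.31 above mock (95% interval -0.11 to 0.74, limma adjusted p = 0.986), and IKKβ(EE) alone read -0.83 against mock (95% interval -1.25 to -0.41, limma adjusted p = 0.153), which among the alternatives passed with a replicate block alone (adjusted p = 0.0297). IRF5-4D minus IKKβ(EE) was 1.14, or 2.21-fold (limma adjusted p = 0.0278). The interaction was 1.90 (SE 0.26, 95% interval 1.30 to 2.49, limma adjusted p = 0.0449), so the combination stood above the sum of the single differences. That call sat close to the threshold and was kept in 8 of 17 alternatives and in 2 of the 8 fits that left out 1 array, those without combination array 3 or mock array 3. The call of the combination against IRF5-4D was lost without either IRF5-4D array (1.09 and 1.04), without either IKKβ(EE) array (1.07 each) and without combination array 1 (0.91). IRF5-4D minus IKKβ(EE) lost it when any 1 of its own 4 arrays was left out (1.04 to 1.24), while the combination against mock and against IKKβ(EE) kept it in all 8 fits.

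The other probe sets of ACKR3 were not called in any comparison and did not read highest in the combination. The probe set 1559114_a_at read 4.19 and 4.51 on the combination arrays and 4.18 and 4.38 in mock, a difference of 0.071 (limma adjusted p = 0.893). The probe set 232746_at read 4.22 and 3.90 on the combination arrays and 4.18 and 4.52 in mock, a difference of -0.29 (limma adjusted p = 0.476). Its IKKβ(EE) arrays read 3.79 and 3.88, below all 6 other arrays as on 212977_at, with a difference from mock of -0.52 (95% interval -0.89 to -0.15) that did not pass (limma adjusted p = 0.553). Over the 8 arrays both lay between 3.79 and 4.57, not far above the lower quartile of the arrays. With the mean of the 3 probe sets, ACKR3 in the combination against mock was 0.39 (adjusted p = 0.0668) and the interaction 0.76 (adjusted p = 0.109), while the combination against IKKβ(EE) was 0.85 and kept its call.

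**Figure D2:**
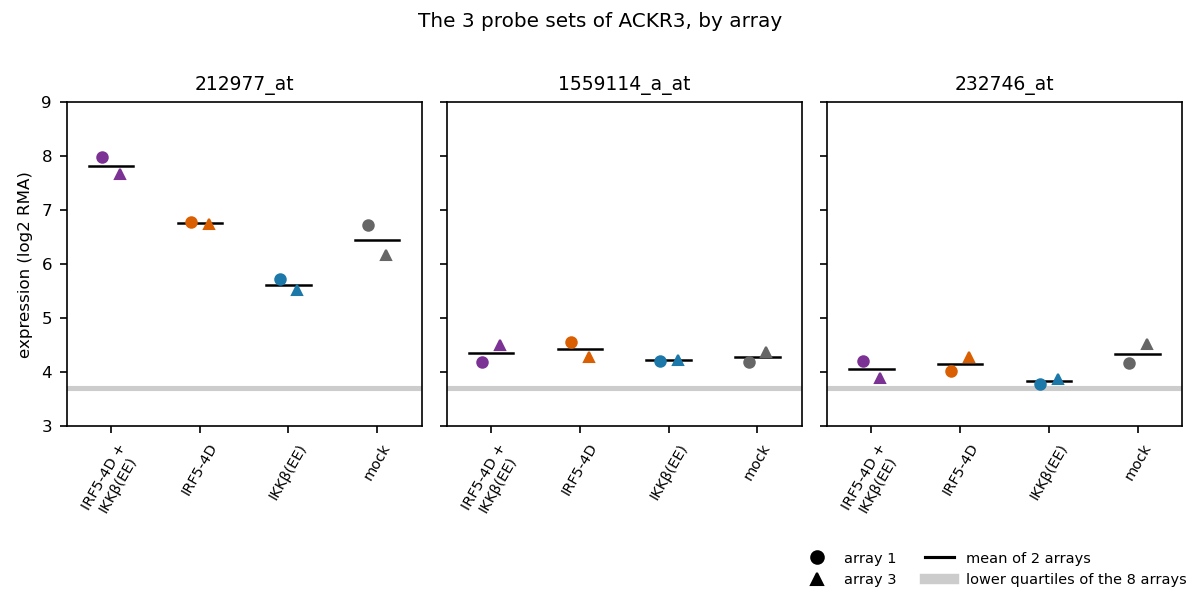
Log2 RMA level of the 3 ACKR3 probe sets on each array by transfection group, with circles for array 1, triangles for array 3, bars for group means and a grey band for the lower quartiles of the arrays. The probe set 212977_at runs from 5.52 to 7.99, and the others stay between 3.79 and 4.57.

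The remaining receptors did not pass in any comparison. CXCR4, the CXCL12 receptor of precursor B cells, was far above the upper quartile of every array: its brightest probe set (217028_at, chr2:136114349-136118149) read 13.02 and 12.98 on combination arrays 1 and 3, 13.20 and 12.99 with IRF5-4D, 13.12 and 13.06 with IKKβ(EE), and 12.92 and 12.94 in mock. The arrays of the construct groups all lay above both mock arrays, by a margin that did not pass (differences of 0.074 in the combination, 0.16 with IRF5-4D and 0.16 with IKKβ(EE)). Its 3 probe sets differed from mock by 0.074 to 0.26. CXCR5, the follicle-homing CXCL13 receptor (216734_s_at, chr11:118883892-118897787), read between 5.34 and 5.65 on all 8 arrays. CXCR3, the receptor of CXCL9, CXCL10 and CXCL11 (217119_s_at, chrX:71615919-71618511), read between 5.12 and 5.53, and CCR10, the receptor of CCL27 and CCL28 (220565_at, chr17:42678889-42681843), between 4.42 and 4.73. On the probe sets named, CXCR3 overlapped mock in every construct group, and CXCR5 and CCR10 did in the combination and with IRF5-4D. Both IKKβ(EE) arrays of CXCR5 and CCR10 lay above mock there, by 0.020 at the nearest for CXCR5 and by 0.0052 for CCR10.

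Over CXCR4, CXCR5, CXCR3 and CCR10, the 12 differences from mock ran from 0.00052 to 0.17, and their 95% intervals lay between -0.28 and 0.48, so a change beyond those bounds was not found on the probe sets used. The lowest limma adjusted p among them was 0.691 in the combination against mock. The second probe sets of CXCR5 (206126_at, 3.78 to 4.11) and CXCR3 (207681_at, 3.87 to 4.32) lay near the lower quartile of the arrays. On 207681_at all construct arrays lay below both mock arrays, with differences from -0.25 to -0.19 that did not pass. On 206126_at both IRF5-4D arrays lay above both mock arrays, by a mean of 0.21 that did not pass. Over all probe sets of these 4 genes the differences from mock ran from -0.25 to 0.26. On the brightest probe sets CXCR5 lay somewhat above the array medians (5.09 to 5.13), CXCR3 near or above them, and CCR10 below them. Whether these levels exceed background is not shown.

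Counted over the 7 receptors, 3 rose in the combination against mock (CCR7, CCR6 and ACKR3), where 2.66% of all genes were called higher. With IRF5-4D 1 rose (CCR7), against 0.314% of all genes, and with IKKβ(EE) 1 rose (CCR7), against 0.516%. In the combination against IRF5-4D alone 2 were higher (CCR7 and ACKR3), against 1.22% of all genes. In the combination against IKKβ(EE) alone 3 were higher (CCR7, CCR6 and ACKR3), against 1.37%. The interaction held for 1 (ACKR3), against 0.0961%, and IRF5-4D minus IKKβ(EE) for 2 (CCR6 and ACKR3), against 0.314%. No receptor was called lower in any of these comparisons, although ACKR3 read -0.83 with IKKβ(EE) against mock and was called lower there with the replicate block. The median difference of the 7 genes from mock was 0.13 in the combination, 0.16 with IRF5-4D and 0.10 with IKKβ(EE), beside -0.027, -0.016 and -0.025 over all genes. The 3 comparisons with mock and the interaction share the mock arrays, the others share construct arrays with them, and the receptors were chosen with results of these arrays known.

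**Figure D3:**
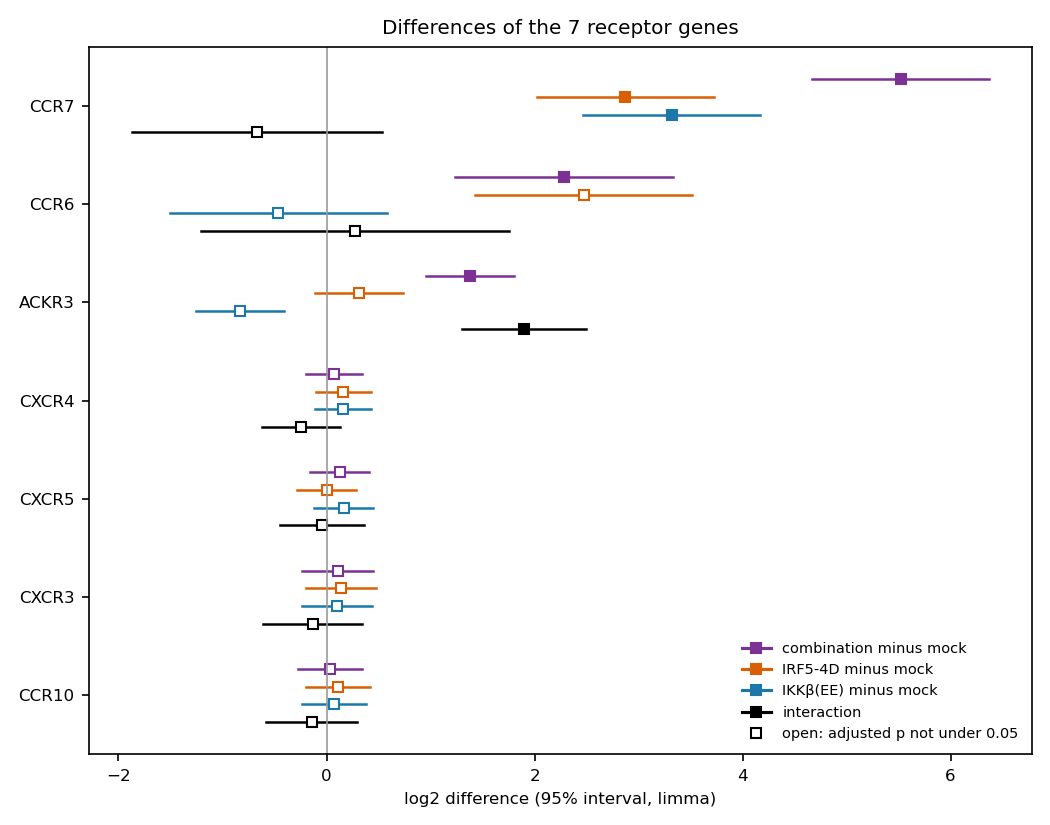
Log2 differences of the 7 receptor genes with 95% intervals from limma, for the combination, IRF5-4D and IKKβ(EE) against mock and for the interaction. Filled squares have an adjusted p under 0.05: CCR7 in all 3 differences from mock, CCR6 in the combination, and ACKR3 in the combination and the interaction.

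The ligands of the 7 receptors were a list of 10 chemokines. In the combination against mock 4 rose, 0 fell and 6 did not pass, with a median difference of 0.40 beside -0.027 over all genes. Of all genes, 2.66% were called higher there and 0.314% with IRF5-4D. CXCL11, a ligand of CXCR3 and ACKR3, read 9.62 and 9.34 on combination arrays 1 and 3, 7.58 and 5.998 with IRF5-4D, 4.99 and 4.00 with IKKβ(EE), and 3.08 and 3.06 in mock. The groups did not overlap, and mock lay below the lower quartile of the arrays, so the size of its difference from mock is uncertain. CXCL11 rose by 6.41 in the combination (limma adjusted p = 9.83e-05) and by 3.72 with IRF5-4D (limma adjusted p = 0.00989), the 1 ligand that passed there, and stood 1.43 above mock with IKKβ(EE) (limma adjusted p = 0.442). The IRF5-4D call of CXCL11 was lost without mock array 1 (adjusted p = 0.0831), without mock array 3 (adjusted p = 0.0777) and with robust variance (adjusted p = 0.0927).

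CXCL10, another CXCR3 ligand, read 8.93 and 7.74 on combination arrays 1 and 3, 5.56 and 4.79 with IRF5-4D, 7.10 and 6.35 with IKKβ(EE), and 4.76 and 4.47 in mock. It rose by 3.72 in the combination against mock (limma adjusted p = 0.00112). With IKKβ(EE) alone it stood 2.11 above mock (limma adjusted p = 0.0704). CXCL9, also a CXCR3 ligand, was high on the combination arrays: it read 7.30 and 7.10 there, 4.34 and 4.68 with IRF5-4D, 4.56 and 4.43 with IKKβ(EE), and 4.04 and 4.78 in mock. CXCL9 rose by 2.80 in the combination against mock (limma adjusted p = 0.000211). Its interaction was 2.60 (limma adjusted p = 0.0238), the 1 ligand that passed that test, beside 0.0961% of all genes called higher. The interaction was lost without either IRF5-4D array, without either IKKβ(EE) array and without combination array 1, and it kept its direction there. The promoter windows of CXCL10 and CXCL9 held both motifs, and that of CXCL11 held GGGNNNNNCC without GAAANNGAAA. A link of these matches to the levels was not tested. CCL19, a ligand of CCR7, was 0.53 higher in the combination against mock (limma adjusted p = 0.0362), a call lost whichever single array was left out. It read 4.75 and 4.71 on combination arrays 1 and 3, and 4.20 on both mock arrays. These levels lay below the array medians, and whether they exceed background is not shown. CXCL12, the ligand of CXCR4 and ACKR3, read 3.84 and 4.02 on the combination arrays and 3.89 and 4.09 in mock. CXCR3 itself read between 5.12 and 5.53 on the arrays where its 3 ligands differed.

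**Figure D4:**
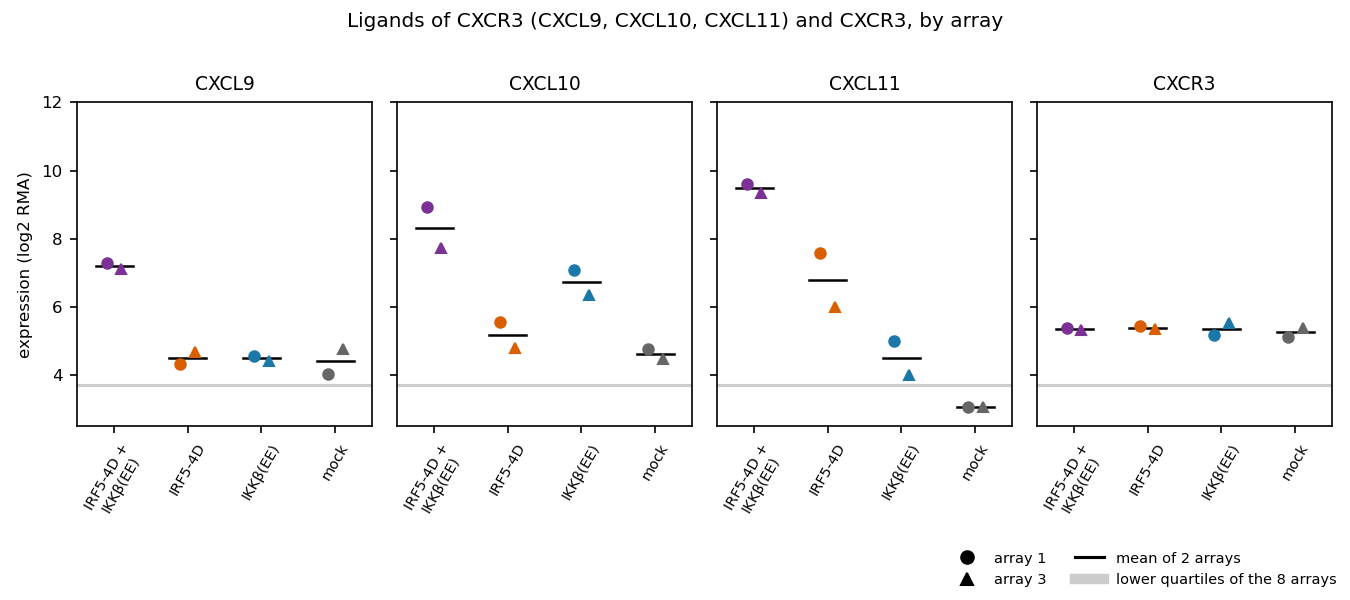
Log2 RMA levels of CXCL9, CXCL10, CXCL11 and their receptor CXCR3 on each array by transfection group, with circles for array 1, triangles for array 3, bars for group means and a grey band for the lower quartiles of the arrays. The ligands are highest on both combination arrays (7.10 to 9.62), and CXCR3 shows no such difference.

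Among other genes of the pathway, 14 of 16 listed other chemokine receptors were measured, and 0 passed in limma against mock with any construct or in the interaction. Of all genes, 2.66% were called higher in the combination, 0.314% with IRF5-4D, 0.516% with IKKβ(EE) and 0.0961% in the interaction. Beside such shares, 0 of 14 does not set these receptors apart from all genes. At an unadjusted p under 0.05 there were 2 of these 14 in the combination, 3 with IRF5-4D, 2 with IKKβ(EE) and 3 in the interaction. The share of all genes under that unadjusted limit was not counted, so such counts, here and below, have no background beside them. Against IRF5-4D alone, 1 of the 14 was called higher in the combination, where 1.22% of all genes were. The farthest from mock in the combination were ACKR1, an atypical receptor that binds many chemokines, at 0.79, and CCR1, a receptor of inflammatory chemokines, at 0.51. Of 29 measured genes of receptor signalling and desensitisation, 4 rose and 0 fell in the combination, where 2.66% of all genes were called higher. In the combination 10 had an unadjusted p under 0.05, a count without a share of all genes beside it. With IRF5-4D or IKKβ(EE) 0 passed in limma, and 3 each had an unadjusted p under 0.05. The median difference of these genes in the combination was 0.098. LYN, a Src family kinase of B cells, read 10.62 and 10.02 on combination arrays 1 and 3, 8.76 and 8.72 with IRF5-4D, 8.49 and 8.32 with IKKβ(EE), and 8.22 and 8.39 in mock. It rose by 2.01 in the combination against mock (limma adjusted p = 0.000434). RGS1, which shortens Gi signalling of chemokine receptors, rose by 1.503 in the combination (limma adjusted p = 0.00543) and stood 1.27 above mock with IRF5-4D (limma adjusted p = 0.0544). GRK3, a kinase that desensitises receptors, rose by 1.002 and RGS10, another regulator of G protein signalling, by 0.74 in the combination. With 1 array left out, GRK3 kept its call in 2 of 8 fits and RGS10 in 1 of 8.

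Of 19 measured positioning and adhesion receptors, 3 rose in the combination and 2 with IKKβ(EE), 0 with IRF5-4D in limma (1 at an unadjusted p under 0.05), and 0 fell. Of all genes, 2.66% were called higher in the combination, 0.314% with IRF5-4D and 0.516% with IKKβ(EE). In this list 7 had an unadjusted p under 0.05 in the combination and 5 with IKKβ(EE), again without a share of all genes. The median difference of the list in the combination was 0.13. ICAM1, the ligand of the integrin LFA-1, read 9.86 and 9.43 on combination arrays 1 and 3, 7.69 and 7.13 with IRF5-4D, 9.78 and 9.58 with IKKβ(EE), and 7.76 and 6.59 in mock. Both groups that carry IKKβ(EE) lay above the other groups. ICAM1 rose by 2.47 in the combination (limma adjusted p = 0.00489) and by 2.51 with IKKβ(EE) (limma adjusted p = 0.0140). CD69, which retains lymphocytes in tissue by removing the receptor S1PR1 from the surface, rose by 1.31 in the combination and by 1.44 with IKKβ(EE). ICAM3 rose by 1.03 in the combination. The IKKβ(EE) call of ICAM1 was lost without either IKKβ(EE) array, at values of 2.41 and 2.61, and that of CD69 without IKKβ(EE) array 1 (1.27). ICAM3 lost its call without either mock array (0.97 and 1.08), without either IRF5-4D array and without combination array 3 (0.74).

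Markers of other cell types and stages were set beside these counts. The shares of all genes called higher were 2.66% in the combination, 0.314% with IRF5-4D and 0.516% with IKKβ(EE). At an unadjusted p under 0.05 the share of all genes was not counted. Of 9 measured B cell markers, CD72 rose by 1.19 and CD74 by 0.66 in the combination, and CD74 by 0.73 with IKKβ(EE). The CD74 call with IKKβ(EE) was lost whichever array was left out, and that in the combination was kept in 4 of the 8 such fits. Of 10 precursor B cell markers 0 passed in limma against mock, and at an unadjusted p under 0.05 there were 2 in the combination, 0 with IRF5-4D and 1 with IKKβ(EE). Of 12 T and NK cell markers NKG7 rose by 1.34 in the combination, of 9 measured plasma cell markers IRF4 rose by 2.81 there, and 0 of 9 measured myeloid markers passed in limma (1 at an unadjusted p under 0.05 in the combination, 0 with IRF5-4D and 1 with IKKβ(EE)).

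The genes whose profiles over the 8 arrays came closest to each varying receptor were ranked by the root mean square difference of profiles centred on their own means. For CCR7, whose own profile had a root mean square of 2.00 around its mean, they were PLAU (0.46), CCL2 (0.48), CCND2 (0.53), LINC01619 (0.76) and TNFSF9 (0.79). PLAU, which encodes urokinase, differed from mock by 4.76 in the combination, 2.22 with IRF5-4D and 2.59 with IKKβ(EE). For CCR6, with a root mean square of 1.40, they were FCRLA (0.43), RAB11FIP1 (0.49), FCGR2A (0.50), PLAUR (0.52) and KLRK1-AS1 (0.54). FCGR2A, an Fc receptor for IgG, differed from mock by 2.52 in the combination, 2.80 with IRF5-4D and -0.013 with IKKβ(EE). For ACKR3, with a root mean square of 0.81, they were NCOA7 (0.24), RAI14 (0.26), EXT1 (0.31), SYT3 (0.32) and HSPB1 (0.32). NCOA7 differed from mock by 1.55 in the combination, 0.49 with IRF5-4D and -0.21 with IKKβ(EE), where ACKR3 read 1.38, 0.31 and -0.83. These likenesses describe the 8 arrays, which share 4 groups, and no test was made of them.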

How the data were processed

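Total RNA of 8 samples of transfected Reh cells was hybridised to 8 arrays. The authors deposited 1 log2 level for each probe set and array, made with RMA per the submitters' processing notes (background correction, quantile normalization between arrays and probe summary); the sources used here give no version of it. Of 54675 probe sets, 62 controls and 13522 without exactly 1 symbol in the platform annotation were left out. Each gene was represented by its probe set with the highest mean. Groups came from the sample labels. A model of group means over all 8 arrays was fitted in limma 3.58.1 (R 4.3.3, lmFit and eBayes, 4 residual and 5.09 prior degrees of freedom), with Benjamini-Hochberg adjustment over 19775 genes. Single probe sets were tested in the same model over 54613 probe sets. The number of arrays limits the precision: the median SE was 0.14 between groups and 0.199 for the interaction. The text names, for each list, up to 4 called genes with the largest change, or up to 2 as values where none was called, and the 5 genes most like each varying receptor; some genes the rule allows are left out of the text. The members and the lists were chosen with earlier results of these data known. The alternatives tried were a mean over all probe sets, no _x_at probe sets, every probe set, genes above the median, median centring, limma with trend or robust variance, a replicate block, only the groups compared, an adjusted p under 0.1, and each array left out. The procedure was run on simulated data with independent noise on each array. Those data held no effect shared by arrays of the same number, so they do not cover such an effect. Promoter windows came from RefSeq (GRCh38.p14), as did gene positions.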

Additional observations from a re-analysis of the deposited data

Results flagged for a closer look

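The effect of IKKβ(EE) on ACKR3 differed with and without IRF5-4D: the test of that difference, the interaction, gave 1.90 on the log2 scale (limma adjusted p = 0.0449, from 0.00696 to 0.309 over the alternatives). IKKβ(EE) added to IRF5-4D went with a difference of 1.07, and IKKβ(EE) set against mock with -0.83, on 212977_at. On the other ACKR3 probe sets the interaction was 0.42 and -0.018, with no call, and the mean of the 3 probe sets gave 0.76 (limma adjusted p = 0.109).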

How the results depend on the processing

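No value reversed among called results. The 4 receptors that passed nowhere (CXCR4, CXCR5, CXCR3 and CCR10) were called in 0 of 479 alternative values, and 39 of 847 alternative values of the 7 receptors had another sign, none of them called. The number of receptors called changed as follows. With the mean of all probe sets it was 1 in the combination against mock, 1 against IRF5-4D, 0 in the interaction and 1 in IRF5-4D minus IKKβ(EE). ACKR3 then read 0.39 against mock, 0.30 against IRF5-4D and 0.85 against IKKβ(EE) in the combination, and 0.56 in IRF5-4D minus IKKβ(EE). With every probe set tested the interaction gave 0. Among genes above the median level, with CCR7, ACKR3 and CXCR4 tested, the combination against mock and against IKKβ(EE) gave 2 each, the interaction 0 and IRF5-4D minus IKKβ(EE) 1, since CCR6 was not among the genes tested. With robust variance the combination against mock gave 2 (without CCR6), IRF5-4D against mock 0, the combination against IKKβ(EE) 1 and IRF5-4D minus IKKβ(EE) 1. With only the groups compared the combination against mock gave 2 (without CCR6) and IRF5-4D against mock 2 (with CCR6), and the interaction could not be fitted because it needs all 4 groups. With the replicate block IRF5-4D against mock gave 2 (CCR7 and CCR6) and IKKβ(EE) against mock 2 (CCR7 and ACKR3). The cause of these changes was not tested, except that fewer genes or samples enter some fits by construction. The numbers 1 and 3 recur in every group but are not stated to mark a culture or day. Differences of array 1 minus array 3 correlated across genes at 0.107 to 0.343 in 5 of 6 pairs of groups. Between the combination and mock the correlation was -0.073. Whether the numbers pair the samples was not tested. The main model held no term for them, while the replicate block did.

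With 1 array left out, the lowest and highest number of receptors called was 2 and 3 in the combination against mock, 0 and 2 with IRF5-4D, 0 and 1 with IKKβ(EE), 0 and 2 in the combination against IRF5-4D, 1 and 3 against IKKβ(EE), 0 and 1 in the interaction and 0 and 2 in IRF5-4D minus IKKβ(EE). Such a fit leaves a group with 1 array, which is assumed to vary like the others. Over all genes, calls in both directions numbered 625 in the combination against mock (280 to 1139 over the alternatives other than leaving out an array, 355 to 564 when leaving out 1 array), 63 with IRF5-4D (41 to 106, and 24 to 83), 102 with IKKβ(EE) (56 to 191, and 30 to 116), 279 in the combination against IRF5-4D (149 to 460, and 70 to 286), 340 against IKKβ(EE) (179 to 607, and 108 to 347), 25 in the interaction (0 to 56, and 0 to 80) and 151 in IRF5-4D minus IKKβ(EE) (95 to 264, and 42 to 182). Of the list counts, the ligands in the combination ran from 1 to 5, and the signalling genes from 2 to 4. Levels near the lower quartile of the arrays limit CCR6, CXCL11 and the mock level of CCR7.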
